A study of Homo sapiens with 9 samples.

Results

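The genes of fatty acid oxidation and mitochondrial uncoupling were examined in ASC52telo, an adipose-derived mesenchymal stem cell (ASC) line that was immortalized with telomerase. The set held 36 genes chosen by symbol, with earlier results of these data known. Of these, 35 had exactly 1 probe set with their symbol in the platform annotation, out of 17687 named genes on the array, and CPT1C was named by none. All cells spent 10 days in differentiation medium (DM), an EpiLife-based medium on a collagen I coating with BMP-4, EGF, ascorbic acid 2-phosphate, hydrocortisone and all-trans retinoic acid, which is meant to turn ASCs into keratinocyte-like cells. The CID group received DM with CID-1067700 (CID) at 40 μM, a small molecule inhibitor of the late endosomal GTPase Rab7. The DMSO group received DM with 0.1% DMSO as the vehicle, and the DM group received DM alone. Whether the CID wells held the same share of DMSO is not given in the sources used here. Total RNA of 3 samples per group was hybridized to Clariom S Human arrays, 1 array per sample. Every group comes from the same single line, so no donor-to-donor spread was measured.

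Fatty acids are burned in mitochondria and, when very long or branched, first shortened in peroxisomes. Long acyl chains enter mitochondria bound to carnitine, and each turn of β-oxidation then uses a dehydrogenase, a hydratase, a second dehydrogenase and a thiolase to cut off acetyl-CoA, with the electrons of the first step passed on through the electron transfer flavoprotein. Uncoupling proteins are carriers of the inner mitochondrial membrane, and UCP1 of brown fat lets protons return without making ATP. Many of these genes are targets of the fatty acid-sensing PPAR nuclear receptors and of their PGC-1 coactivators, which makes them a usual readout of how fat cells and their precursors handle lipid.

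Values are the deposited log2 values of each probe set. Array medians lay between 7.06 and 7.14, and arrays of a group correlated across probe sets at 0.994 to 0.995, against 0.991 to 0.995 for arrays of different groups. The 3 samples of a group are called biological replicates, with no word on separate cultures. The p-values therefore cover only the spread among these samples, and that spread may be technical. RAB7A, which encodes Rab7 itself, had log2 fold changes of 0.08 for CID against DMSO (adjusted p = 0.802 from limma) and 0.15 for CID against DM (adjusted p = 0.612). The 10 markers of mesenchymal stromal cells averaged 14.49 to 14.53 on the log2 scale on the CID arrays, 14.90 to 14.96 on the DMSO arrays and 14.77 to 14.84 on the DM arrays. Of these 10 markers, 8 had negative log2 fold changes in each comparison, but not the same 8. ENG was at 0.10 against DMSO and -0.04 against DM, and CD44 at -0.06 and 0.03. Of the 10, 5 against DMSO and 1 against DM were called as lower. Over all probe sets, 1.74% were called as lower against DMSO, and 208 of 21448 against DM. A call is an adjusted p under 0.05 from limma with at least a 1.5-fold change. THY1 went the other way without a call, with all CID arrays above all others and log2 fold changes of 0.45 and 0.39. The 7 measured keratinocyte markers were all in the dimmest 33.3% of probe sets (array means of 4.07 to 4.13 with CID, 3.99 to 4.33 with DMSO and 4.06 to 4.27 with DM), and so were ADIPOQ, FABP4 and PLIN1 among 8 adipocyte markers. In such bulk RNA, fewer cells of a type and less RNA per cell cannot be told apart. The lower mean of the mesenchymal markers was seen on all CID arrays, and its part in the results for CID was not tested.

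Among the 35 genes, the vehicle comparison gave a single call. With CID against DMSO, 1 gene was called (adjusted p under 0.05 from limma over all probe sets, with at least a 1.5-fold change), ACADVL, which rose. Across the array 2.41% of probe sets were called in that comparison, and 0.667% were called as higher. Against DM, 0 of the 35 genes were called, where 1.35% of all probe sets were, 0.378% as higher. Before adjustment, 6 genes passed a p under 0.05 against DMSO, 4 higher and 2 lower, beside 15.2% of all probe sets (7.2% higher and 7.96% lower). Against DM, 8 genes passed it, 7 higher and 1 lower, beside 12.6% of all probe sets (5.74% higher and 6.9% lower). Both comparisons use the same CID arrays. When CID was set against the mean of the DM and DMSO groups, ACADVL was again the only gene called, where 2.44% of all probe sets were called, 0.648% as higher.

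The middle of the set lay slightly above 0. The median log2 fold change was 0.13 for CID against DMSO and 0.11 for CID against DM, beside medians of 0.02 and 0.01 over all probe sets. The set was brighter than the array as a whole, with single-array medians of 8.81 to 9.26 beside 7.06 to 7.14. The SD of the set median between arrays was wider than these median changes. With CID, 21 of the 35 genes (60%) lay above their DMSO mean and 24 (68.6%) above their DM mean, where 53.2% and 51.2% of all probe sets did. Changes ran from -0.61 to 0.83 against DMSO and from -0.43 to 0.82 against DM. For 22 genes against DMSO and 20 genes against DM, the 95% interval of the fold change stayed within 1.5-fold in either direction, so that a larger change was outside the interval for those genes. The same held for 63.1% and 65.5% of all probe sets. For the others the interval reached past 1.5-fold in at least 1 direction.

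**Figure D1:**
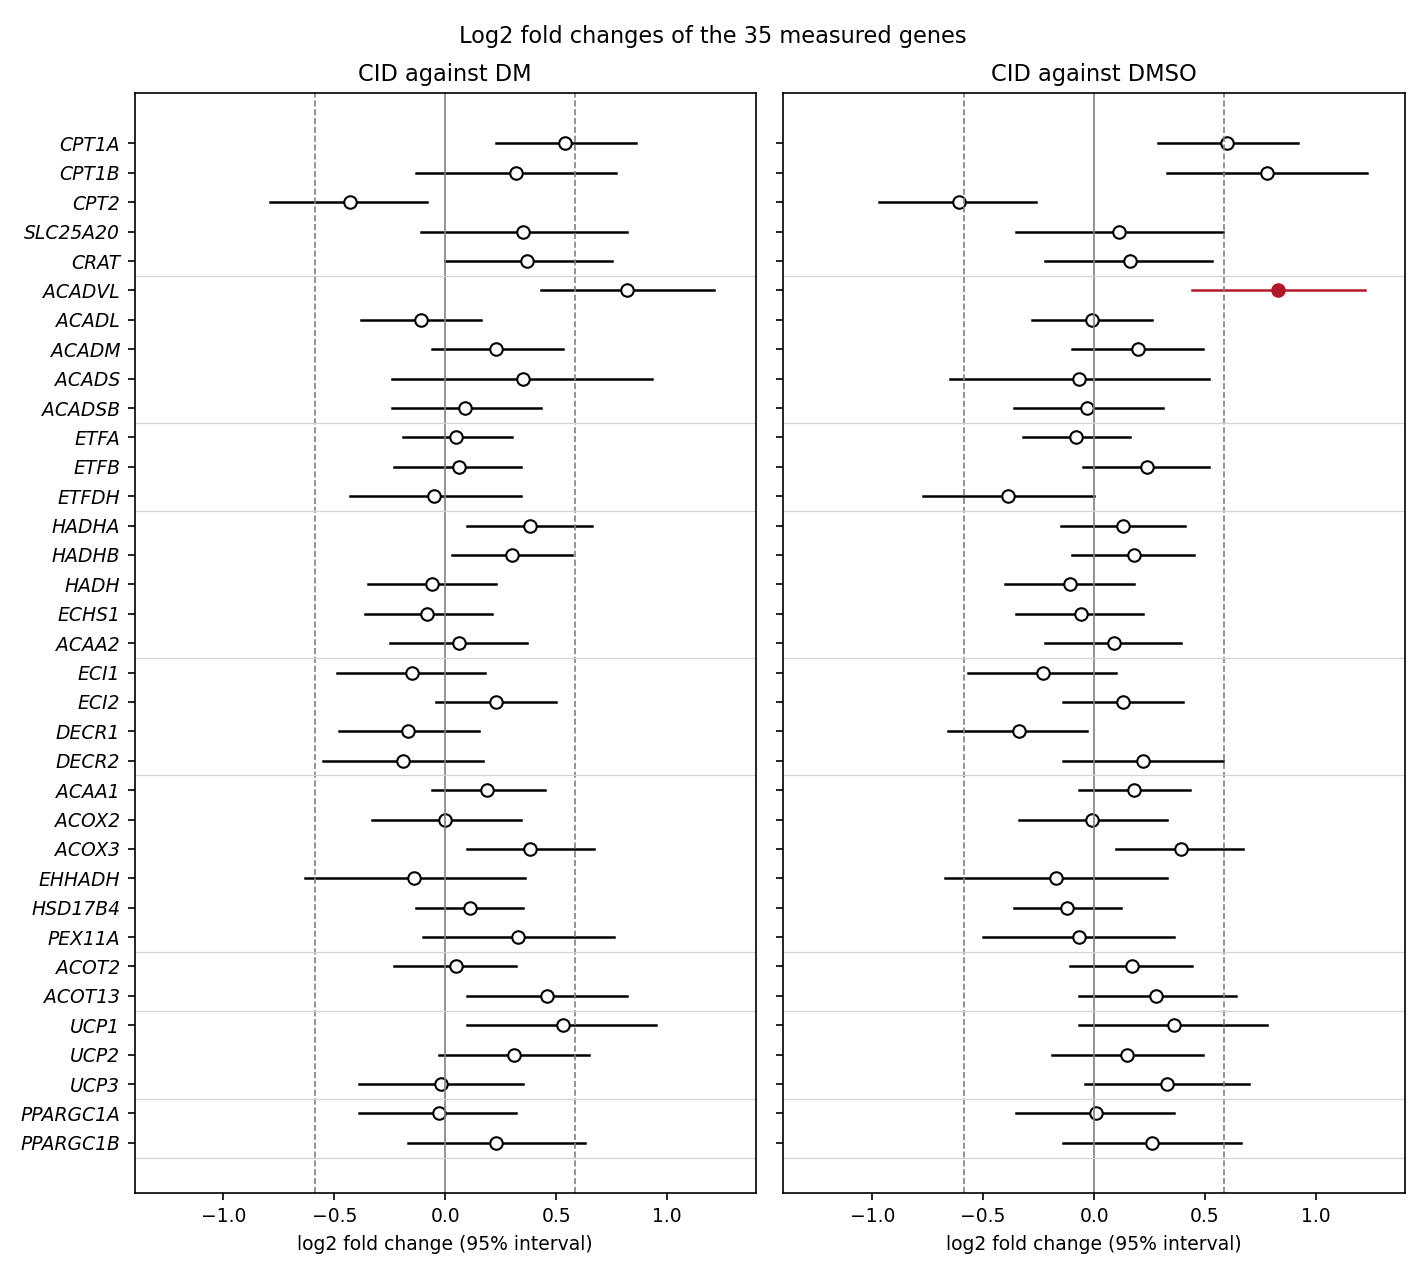
Log2 fold changes of the 35 measured genes, by role from top to bottom, for CID against DMSO (right panel) and CID against DM (left panel), with 95% intervals from limma. Dashed lines mark 1.5-fold and the filled red point is a called gene. ACADVL at 0.83 against DMSO is the only filled point, and CPT2 is the lowest gene in both panels at -0.61 and -0.43.

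The carnitine shuttle held the widest range of changes, with CPT1 genes above 0 and CPT2 below 0 in both comparisons, though no gene of the shuttle was called. CPT1A encodes the carnitine palmitoyltransferase of the outer mitochondrial membrane, the rate-limiting step for long-chain fatty acids. Its log2 values were 10.52, 10.31 and 10.46 with CID, 9.71, 9.96 and 9.81 with DMSO, and 10.04, 9.61 and 10.01 with DM. All 3 CID arrays were above all 6 others, and the DMSO and DM arrays overlapped. The log2 fold change was 0.60 against DMSO (SE 0.14, adjusted p = 0.0530 from limma) and 0.54 against DM (SE 0.14, adjusted p = 0.106), and neither was called. Against the mean of both groups the adjusted p was 0.0298 with a 1.49-fold difference, just under the fold threshold. An adjusted p under 0.05 alone was reached by 3.38% of all probe sets in that comparison and by 2 genes of the set, CPT1A and ACADVL.
CPT1B is the muscle form of the same enzyme. Its log2 values were 7.07, 6.73 and 6.90 with CID, 6.09, 5.97 and 6.30 with DMSO, and 7.08, 6.41 and 6.24 with DM. The values with CID cleared every DMSO array, but the array DM 1 was as high as the highest of them while DM 2 and DM 3 were near the DMSO arrays. The log2 fold change was 0.78 against DMSO (SE 0.20, adjusted p = 0.0757 from limma) and 0.32 against DM (SE 0.20, adjusted p = 0.559). The gene shares its locus with the readthrough transcript CHKB-CPT1B, so that a probe may read both.
CPT2 encodes the enzyme of the inner membrane that takes the acyl chain back from carnitine. Its log2 values were 8.46, 8.10 and 8.24 with CID, 8.86, 9.17 and 8.61 with DMSO, and 8.82, 8.59 and 8.69 with DM. It was the only gene of the set with all 3 CID arrays below all 6 others. The log2 fold change was -0.61 against DMSO (SE 0.16, adjusted p = 0.0753 from limma) and -0.43 against DM (SE 0.16, adjusted p = 0.274), and neither was called.
SLC25A20, the translocase that exchanges acylcarnitine for carnitine, and CRAT, an acetyltransferase that buffers acetyl-CoA with carnitine, had log2 fold changes of 0.11 and 0.16 against DMSO and of 0.35 and 0.37 against DM. The array DM 1 stood well above the other DM arrays for SLC25A20, and DM 2 was the lowest of the 9 arrays for CRAT.

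**Figure D2:**
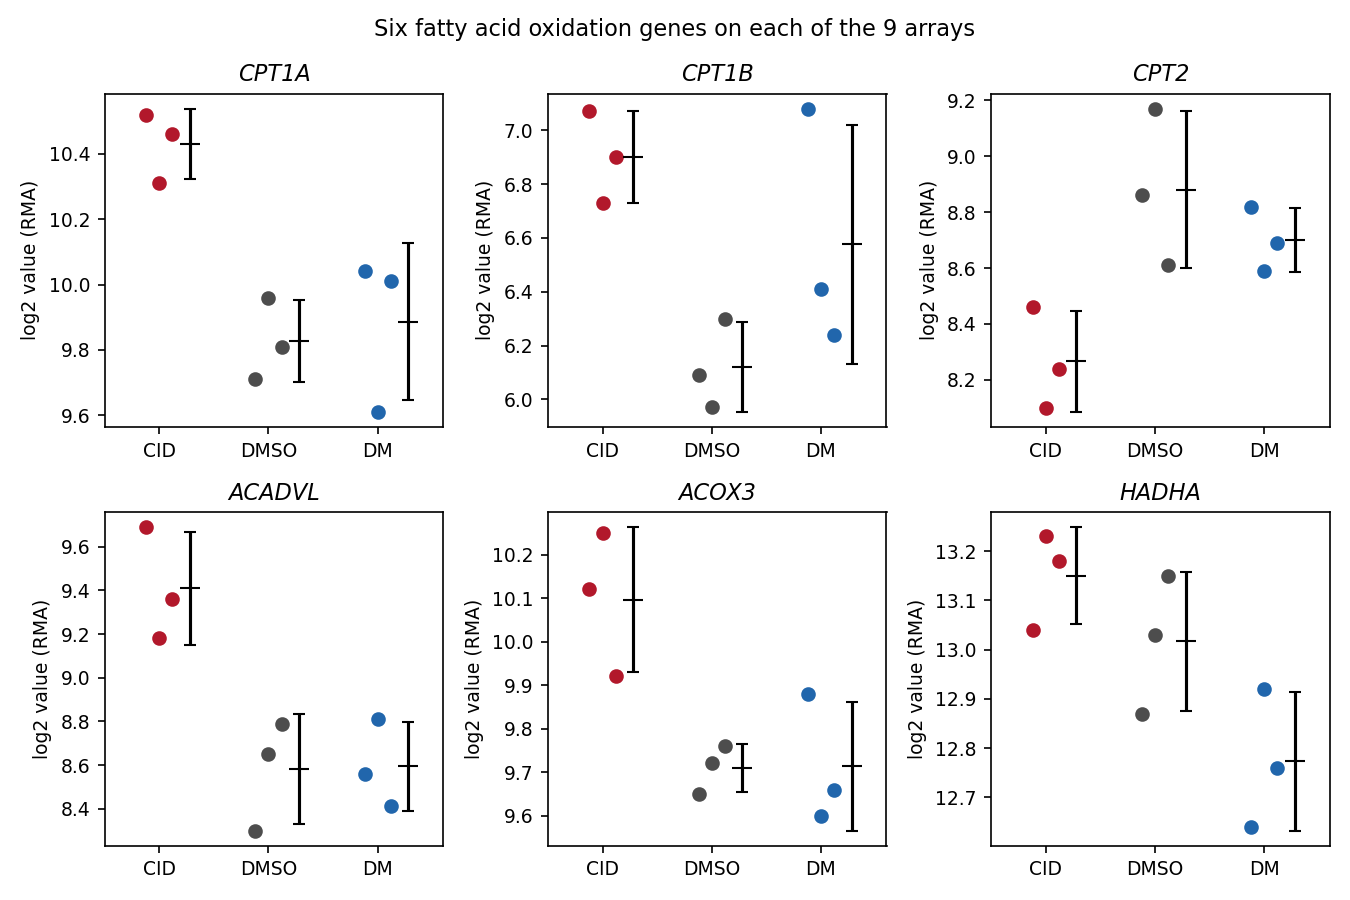
Log2 values (RMA) of 6 genes on each of the 9 arrays, with CID at the left, DMSO in the middle and DM at the right. Points are arrays and bars are the group mean with the SD of 3 arrays. CPT1A, ACADVL and ACOX3 have all CID points above all others, CPT2 has all below, and CPT1B and HADHA overlap with DM or DMSO.

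The promoters of CPT1A and CPT2 are shown because these genes of a single transport route lay on opposite sides of 0. The windows run from 250 bases before to 50 bases after the first start site listed for the gene in RefSeq on GRCh38.p14. Other start sites of a gene were not examined, and the first need not be the main one. Windows are given 5′ to 3′ on the strand of the gene. They lie at chr11:68844228-68844527 on the minus strand for CPT1A and chr1:53196574-53196873 on the plus strand for CPT2. Capitals mark GC boxes, GGGCGG on either strand.
CPT1A: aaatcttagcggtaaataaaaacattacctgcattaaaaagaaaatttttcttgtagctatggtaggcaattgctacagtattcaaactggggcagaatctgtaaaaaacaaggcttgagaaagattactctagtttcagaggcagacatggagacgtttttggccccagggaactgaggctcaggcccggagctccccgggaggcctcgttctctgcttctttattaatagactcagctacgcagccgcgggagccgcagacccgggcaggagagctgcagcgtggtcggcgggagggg
CPT2: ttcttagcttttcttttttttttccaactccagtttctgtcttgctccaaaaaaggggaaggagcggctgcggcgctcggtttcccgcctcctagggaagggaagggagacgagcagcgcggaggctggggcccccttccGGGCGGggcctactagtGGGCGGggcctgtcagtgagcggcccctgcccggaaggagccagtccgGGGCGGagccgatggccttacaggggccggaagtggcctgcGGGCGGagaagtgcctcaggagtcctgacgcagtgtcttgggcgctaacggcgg
The CPT2 window held 4 GC boxes and the CPT1A window 0, with GC contents of 65.0% and 50.0%. Whether this bears on the changes of these genes, neither of which was called against DMSO or DM, was not tested.

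Among the acyl-CoA dehydrogenases, which carry out the first step of β-oxidation and divide the work by chain length, only the enzyme for the longest chains was called. ACADVL, the very long-chain acyl-CoA dehydrogenase of the inner membrane, had log2 values of 9.69, 9.18 and 9.36 with CID, 8.30, 8.65 and 8.79 with DMSO, and 8.56, 8.81 and 8.41 with DM. Every CID array was above every other array, and the DMSO and DM arrays covered the same range. ACADVL rose 1.78-fold with CID against DMSO (log2 fold change 0.83, SE 0.18, 95% interval 0.44 to 1.22, adjusted p = 0.0328 from limma). Against DM the change was of the same size at 0.82 (SE 0.18, 95% interval 0.43 to 1.21), with an adjusted p of 0.0528 that missed the threshold. DMSO and DM themselves differed by -0.01 (adjusted p = 0.992). The call against DMSO was lost without CID 1, CID 3, any of the DMSO arrays or DM 1 (adjusted p = 0.0507 from limma without DM 1), with log2 fold changes of 0.69 to 0.94 over the fits that left out 1 array and a highest adjusted p of 0.116 without CID 1. ACADVL overlaps DLG4 in the annotation, and the strand that the probes read was not examined.
The ACADVL promoter is shown as that of the called gene, at chr17:7216875-7217174 on the plus strand, with capitals for its one match to TATAAA, here on the opposite strand.
ACADVL: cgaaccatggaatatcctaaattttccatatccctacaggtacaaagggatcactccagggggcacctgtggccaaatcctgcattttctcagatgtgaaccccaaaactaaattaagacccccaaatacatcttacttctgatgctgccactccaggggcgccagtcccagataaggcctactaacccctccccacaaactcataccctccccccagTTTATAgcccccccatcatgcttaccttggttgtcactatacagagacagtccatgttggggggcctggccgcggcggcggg
It was the only one of 28 windows of the set with TATAAA on either strand, a motif found in 12% of the windows of all genes.
ACADM, the medium-chain enzyme that is deficient in the commonest inherited defect of β-oxidation, had log2 fold changes of 0.20 against DMSO and 0.23 against DM, and its intervals stayed within 1.5-fold. ACADL, the long-chain form, had -0.01 and -0.11, and ACADSB, which acts on short branched chains, had -0.03 and 0.09, with intervals inside 1.5-fold as well. ACADS, the short-chain form, had -0.07 and 0.35 with the largest within-group SD of the set, 0.41, and the array DM 2 at 3.95 lay well below the remaining values of 4.67 to 5.29.

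The electron transfer flavoprotein chain, which passes electrons from these dehydrogenases to ubiquinone, had no called gene. ETFA and ETFB, its soluble subunits, had log2 fold changes of -0.08 and 0.24 against DMSO and 0.05 and 0.06 against DM. ETFDH, the membrane-bound oxidoreductase, had log2 values of 8.92, 9.09 and 8.76 with CID, 9.16, 9.40 and 9.37 with DMSO, and 9.36, 8.67 and 8.88 with DM. Values with CID were below those with DMSO and within the range of DM. Its log2 fold change was -0.39 against DMSO (adjusted p = 0.331 from limma) and -0.05 against DM (adjusted p = 0.943).

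The later steps of the mitochondrial cycle had no called gene either, and the trifunctional protein came nearest. HADHA, its α subunit with the hydratase and dehydrogenase activities for long chains, had log2 values of 13.04, 13.23 and 13.18 with CID, 12.87, 13.03 and 13.15 with DMSO, and 12.64, 12.92 and 12.76 with DM. Values with CID were all above those with DM and overlapped those with DMSO. This gave log2 fold changes of 0.13 against DMSO (SE 0.13, adjusted p = 0.684 from limma) and 0.38 against DM (SE 0.13, adjusted p = 0.225).
HADHB, the β subunit with the thiolase activity, had log2 values of 12.41, 12.36 and 12.40 with CID, 12.17, 12.07 and 12.40 with DMSO, and 12.17, 11.95 and 12.15 with DM. As for HADHA, the CID arrays lay above the DM arrays and the array DMSO 3 reached them. Log2 fold changes were 0.18 against DMSO (adjusted p = 0.559 from limma) and 0.30 against DM (adjusted p = 0.343).
The subunit genes lie head to head, with start sites 307 bases apart, and their promoter windows share 194 bases. The HADHB window is shown as 1 of this pair, at chr2:26244689-26244988 on the plus strand, with GC boxes in capitals, both on the opposite strand.
HADHB: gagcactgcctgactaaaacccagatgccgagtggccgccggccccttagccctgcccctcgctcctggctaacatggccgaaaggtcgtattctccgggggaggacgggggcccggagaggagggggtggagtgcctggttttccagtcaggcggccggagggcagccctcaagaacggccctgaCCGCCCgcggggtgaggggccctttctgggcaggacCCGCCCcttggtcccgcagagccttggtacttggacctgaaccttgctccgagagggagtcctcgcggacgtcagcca
The genes for shorter chains stayed closer to 0. ECHS1, the short-chain hydratase, had log2 fold changes of -0.06 against DMSO and -0.08 against DM, HADH, the hydroxyacyl-CoA dehydrogenase, had -0.11 and -0.06, and ACAA2, a mitochondrial thiolase, had 0.09 and 0.06. All of their intervals stayed within 1.5-fold.

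The 4 auxiliary enzymes for the double bonds of unsaturated fatty acids had no called gene. DECR1, the mitochondrial dienoyl-CoA reductase, had log2 values of 10.69, 10.57 and 10.25 with CID, 10.71, 11.01 and 10.82 with DMSO, and 10.66, 10.58 and 10.77 with DM. CID 1 and the array DMSO 1 nearly met, the other CID values were lower, and the groups CID and DM overlapped. Its log2 fold change was -0.34 against DMSO (adjusted p = 0.282 from limma) and -0.17 against DM (adjusted p = 0.688).
DECR2, the peroxisomal reductase, had 0.22 against DMSO and -0.19 against DM. ECI1, a mitochondrial enoyl-CoA isomerase, had -0.23 and -0.15. ECI2, an isomerase of mitochondria and peroxisomes, had log2 values of 12.18, 12.19 and 12.18 with CID, all above the values of 12.12, 12.12 and 11.92 with DMSO and of 11.79, 11.95 and 12.12 with DM. The step was small, with log2 fold changes of 0.13 against DMSO and 0.23 against DM, both with intervals within 1.5-fold.

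In the peroxisome, 0 of 6 genes were called. ACOX3, an acyl-CoA oxidase for branched chains, had log2 values of 10.12, 10.25 and 9.92 with CID, 9.65, 9.72 and 9.76 with DMSO, and 9.88, 9.60 and 9.66 with DM. All CID arrays were above all others, though CID 3 exceeded DM 1 only narrowly. Its log2 fold changes were 0.39 against DMSO (SE 0.13, adjusted p = 0.168 from limma) and 0.38 against DM (SE 0.13, adjusted p = 0.222).
ACAA1, the peroxisomal thiolase, also had its CID arrays (12.60, 12.47 and 12.59) above the DMSO arrays (12.44, 12.29 and 12.39) and the DM arrays (12.46, 12.23 and 12.39). The log2 fold changes of 0.18 and 0.19 had intervals within 1.5-fold.
ACOX2, the oxidase of bile acid intermediates, had -0.01 against DMSO and 0.00 against DM. EHHADH, the bifunctional enzyme of the straight-chain route and a classical PPAR target, had -0.17 and -0.14, and HSD17B4, the second bifunctional enzyme, had -0.12 and 0.11. PEX11A, which promotes the division of peroxisomes, had -0.07 and 0.33, and its DM arrays were spread from 6.88 to 7.55.
The thioesterases, which release free fatty acids from acyl-CoA, had no called gene. ACOT13 had log2 values of 9.31, 9.24 and 8.80 with CID, 8.83, 8.83 and 8.84 with DMSO, and 8.79, 8.39 and 8.79 with DM. CID 1 and CID 2 were high and CID 3 was level with the other groups. Log2 fold changes were 0.28 against DMSO (adjusted p = 0.456 from limma) and 0.46 against DM (adjusted p = 0.247). ACOT2, a mitochondrial enzyme, had 0.17 and 0.05, and its near-identical relative ACOT1 may share its signal.

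**Figure D3:**
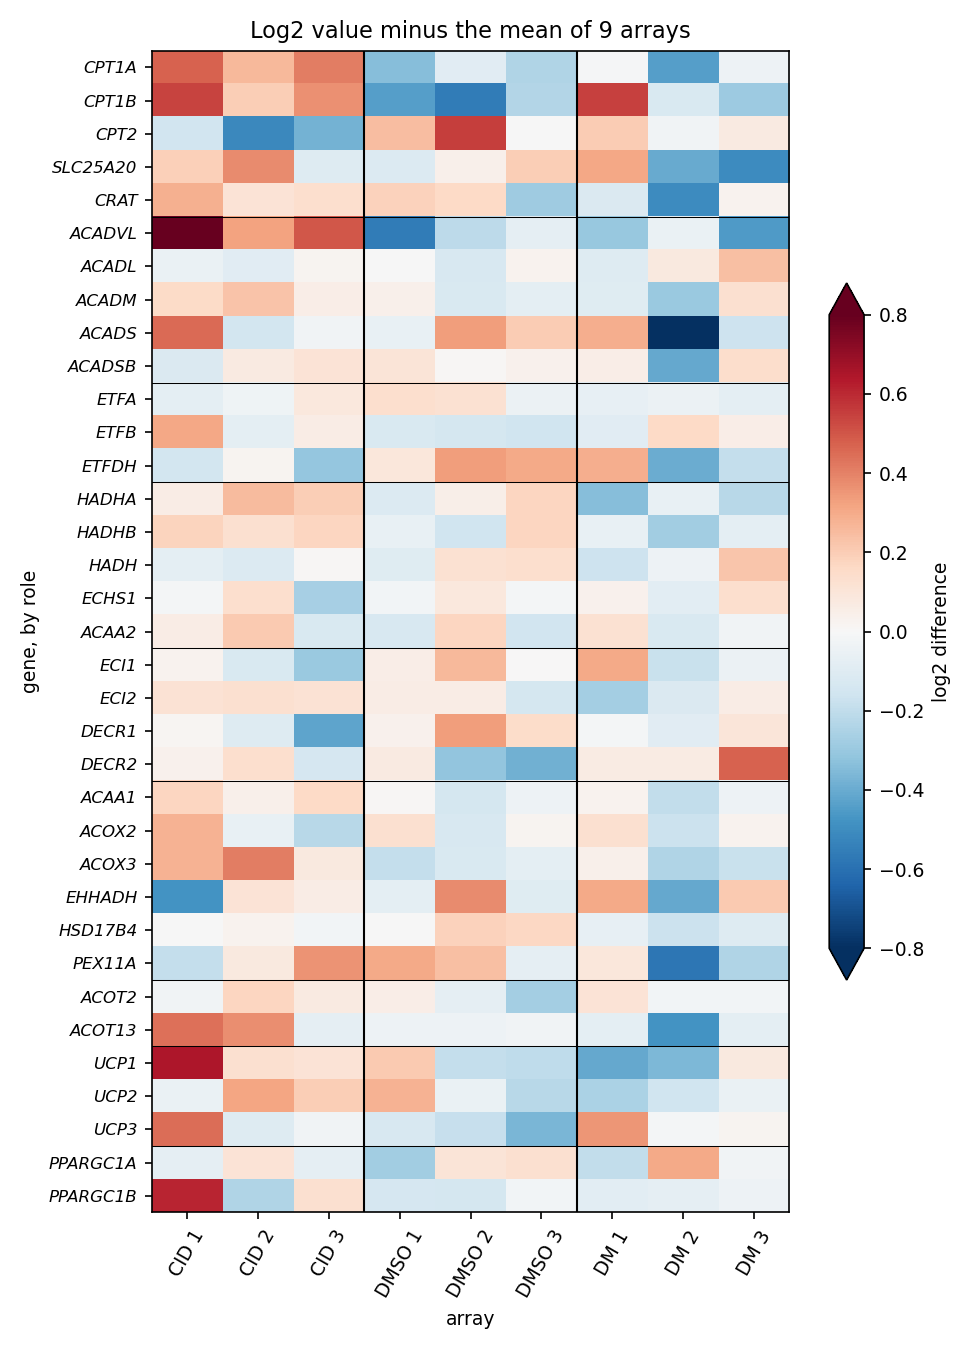
Log2 value of each gene minus its mean over the 9 arrays, with genes by role from top to bottom and arrays from CID at the left through DMSO to DM. Red is above and blue below the mean of the gene, and the scale ends at 0.8 in either direction. CPT1A and ACADVL are red on all 3 CID arrays and CPT2 is blue, while the column DM 2 is blue in many rows.

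None of the 3 uncoupling genes was called. UCP1, the thermogenic protein of brown and beige fat, had log2 values of 4.70, 4.18 and 4.16 with CID, 4.26, 3.86 and 3.85 with DMSO, and 3.64, 3.69 and 4.13 with DM. CID values were above DM values, narrowly so for CID 3 and DM 3, and overlapped DMSO values. Log2 fold changes were 0.36 against DMSO (SE 0.19, adjusted p = 0.427 from limma) and 0.53 against DM (SE 0.19, adjusted p = 0.271). UCP1 and UCP2 were among 4 genes of the set in the dimmest 33.3% of probe sets, with a 9-array mean under 5.40, beside ACADS and PPARGC1B, and at such values background signal can make up much of the value.
UCP2, a widely expressed relative, had log2 values of 3.74, 4.11 and 3.99 with CID, 4.07, 3.74 and 3.57 with DMSO, and 3.54, 3.63 and 3.74 with DM, and the CID and DMSO arrays overlapped. The log2 fold change was 0.15 against DMSO and 0.31 against DM. UCP3, the muscle relative, had log2 values of 6.46, 5.91 and 5.99 with CID, 5.89, 5.83 and 5.65 with DMSO, and 6.37, 6.0 and 6.04 with DM. Values with CID were above those with DMSO and overlapped those with DM, with log2 fold changes of 0.33 against DMSO (adjusted p = 0.390 from limma) and -0.02 against DM (adjusted p = 0.981).
The coactivators of the program did not pass the test. PPARGC1A, which encodes PGC-1α, had log2 values of 5.59, 5.77 and 5.59 with CID, 5.38, 5.76 and 5.79 with DMSO, and 5.46, 5.96 and 5.63 with DM. The groups overlapped, and the log2 fold changes of 0.01 against DMSO (95% interval -0.35 to 0.36) and -0.03 against DM (95% interval -0.39 to 0.32) had intervals within 1.5-fold. PPARGC1B, which encodes PGC-1β, had 5.95, 5.10 and 5.47 with CID, 5.21, 5.20 and 5.32 with DMSO, and 5.26, 5.27 and 5.30 with DM. The DMSO and DM arrays were close together and the CID arrays fell on either side of them, with log2 fold changes of 0.26 and 0.23.

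No gene of the set was called between DMSO and DM. For DMSO against DM, 0 of 35 genes were called, where 0.00466% of all probe sets were, and 2 genes passed an unadjusted p under 0.05, CPT1B at -0.46 (adjusted p = 0.701 from limma) and DECR2 at -0.41 (adjusted p = 0.685). Across the array 6.98% of probe sets passed that unadjusted threshold, 4.04% as lower. The median log2 fold change was 0.05, beside 0 over all probe sets. Of the 35 intervals, 26 (74.3%) stayed within 1.5-fold, beside 70.7% for all probe sets. For CPT1B, only DM 1 was as high as the CID arrays. Without DM 1 its log2 fold change was -0.21 for DMSO against DM, beside -0.46, and 0.57 for CID against DM (adjusted p = 0.165 from limma). Without DM 2 or DM 3, CID against DM was at 0.24 or 0.15 (adjusted p = 0.743 and 0.833 from limma). UCP3 lay higher with CID than with DMSO but near DM, and there the DMSO group was the low one, with DMSO against DM at -0.35. ETFDH was the opposite case, with DMSO against DM at 0.34 (adjusted p = 0.754). Whether the changes against DMSO and against DM differ for these genes is this same comparison of DMSO with DM, and none passed it.

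Single arrays carried part of the spread. DM 2 was the lowest of the 9 arrays for 12 of the 35 genes, where it was the lowest for 13.7% of all probe sets. CID 1 was the highest for 12 genes and CID 2 for 8, where they were the highest for 13.8% and 10.8% of all probe sets. The CID arrays were all above the other 6 for 5 genes (14.3%), CPT1A, ACADVL, ECI2, ACAA1 and ACOX3, where 4.42% of all probe sets did so, and all below for CPT2 (2.86%), where 5.33% did. When 1 array was left out, the median log2 fold change of CID against DM was 0.10 to 0.15, beside 0.11 with all arrays. The median of CID against DMSO, 0.13 with all arrays, was 0.06 without DMSO 1 or DMSO 3 and 0.07 without CID 2. The within-group SD had a median of 0.19 in the set and 0.19 over all probe sets.

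Calls were also found among other genes of fatty acid use, which are not in the set. Like the set, they were listed with earlier results of these data known. Of 17 measured lipid genes that PPARs are known to induce, 3 were called as higher with CID in both comparisons. Of all probe sets, 0.667% were called as higher against DMSO and 0.378% against DM. PDK4, the kinase that turns off pyruvate dehydrogenase and so spares glucose for fat, had log2 values of 8.32, 8.60 and 8.95 with CID, 6.36, 6.13 and 6.60 with DMSO, and 7.0, 6.94 and 6.51 with DM. Its CID arrays were more than 1 log2 unit above every other array, and the log2 fold change was 2.26 against DMSO (adjusted p = 3.34e-04 from limma) and 1.81 against DM (adjusted p = 0.00151). PLIN2, a lipid droplet coat protein, had 1.5 and 1.46 (adjusted p = 0.00143 and 0.00251 from limma), and ANGPTL4, an inhibitor of lipoprotein lipase, had 1.08 and 0.73 (adjusted p = 0.00137 and 0.0137). The calls of PDK4 and PLIN2 were kept when any 1 array was left out, while leaving out CID 2, CID 3 or DM 3 ended the ANGPTL4 call against DM, at adjusted p-values up to 0.0609. The medians of these 17 genes were 0.21 against DMSO and 0.24 against DM, and FABP3, a cytosolic fatty acid-binding protein singled out after its values were seen, was the lowest at -1.26 and -1.49 (adjusted p = 0.223 and 0.191 from limma).

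Further lists of mitochondrial and lipid genes held 7 genes called against DMSO, each as lower, where 1.74% of all probe sets were called as lower. Of 19 further acyl-CoA dehydrogenases and genes of branched-chain amino acid breakdown, 2 fell against DMSO and 0 were called against DM. BCKDHB, a subunit of the branched-chain keto acid dehydrogenase, had log2 values of 9.98, 9.92 and 9.94 with CID, 10.55, 10.63 and 10.63 with DMSO, and 10.54, 10.49 and 10.19 with DM. All values with CID were below the rest, and the log2 fold change was -0.66 against DMSO (adjusted p = 0.0176 from limma) and -0.46 against DM (adjusted p = 0.108). ALDH6A1, which acts late in valine breakdown, had -0.94 against DMSO (adjusted p = 0.0176) and -0.35 against DM (adjusted p = 0.444), and its DMSO arrays were the high ones.
OXCT1, the enzyme that lets cells use ketone bodies, had log2 values of 10.00, 10.07 and 9.69 with CID, 10.51, 10.87 and 10.51 with DMSO, and 10.50, 10.65 and 10.43 with DM. All CID arrays were below the others, with log2 fold changes of -0.71 against DMSO (adjusted p = 0.0308 from limma) and -0.61 against DM (adjusted p = 0.0800), and it was the 1 of 4 genes of ketone body metabolism that was called. A list of 16 genes of fatty acid activation also counted in the thioesterases ACOT1, ACOT7, ACOT9 and ACOT11 and the acyl-CoA-binding protein DBI. Of these 16 genes, 1 fell against DMSO, ACSS2, a cytosolic acetyl-CoA synthetase (-1.04, adjusted p = 0.0252 from limma, and -0.83 against DM with adjusted p = 0.0885).
Of 67 subunits of oxidative phosphorylation, COX8A of cytochrome c oxidase was the 1 called, at -0.67 against DMSO (adjusted p = 0.0407 from limma) and -0.49 against DM (adjusted p = 0.169). The medians of the 67 genes were -0.12 and -0.14, with 46 and 47 of them below 0. Of 34 further mitochondrial carriers, all of the SLC25 family but MPC1 and MPC2, SLC25A42, which brings CoA into mitochondria, fell against DMSO (-0.73, adjusted p = 0.0249 from limma). Against DM, SLC25A42 was at -0.37 (adjusted p = 0.311 from limma), and DMSO against DM was at 0.36. Of 18 further genes of brown and beige fat, ELOVL3, a fatty acid elongase, fell against DMSO (-0.69, adjusted p = 0.0298 from limma). Against DM, ELOVL3 was at -0.24 (adjusted p = 0.532 from limma), and DMSO against DM was at 0.45. Each of these 7 calls against DMSO was lost in at least 4 of the 6 fits that left out 1 CID or DMSO array, with a highest adjusted p of 0.144 for COX8A.
Of 22 regulators, among them the PPAR, ERR and AMPK genes, 0 were called against DMSO or DM, and KLF15, a transcription factor of fasting metabolism, fell against the mean of both groups (-0.78, adjusted p = 0.0462 from limma), a call that was lost in 7 of the 9 fits that left out 1 array, all but those without DM 2 or DMSO 2 (highest adjusted p = 0.175, without CID 2). The tricarboxylic acid cycle (14 genes), further peroxisomal lipid genes (21) and mitochondrial biogenesis (15) had 0 calls, with medians between -0.04 and 0.06 against DMSO and between 0.05 and 0.09 against DM.

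**Figure D4:**
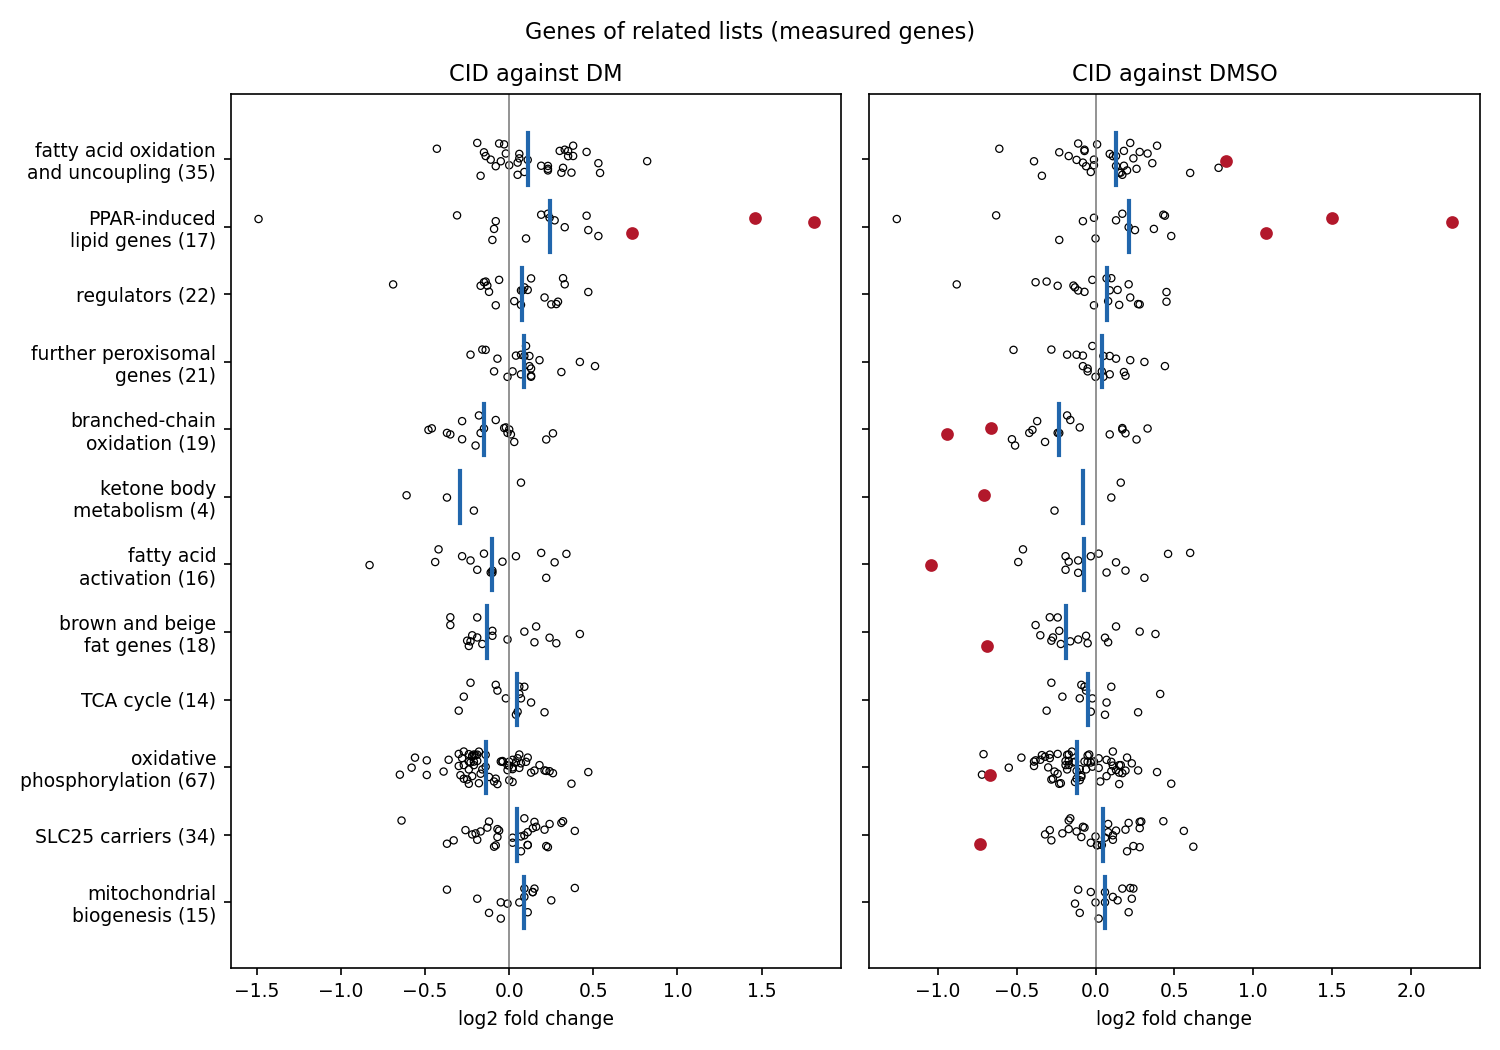
Log2 fold changes for CID against DMSO (right panel) and CID against DM (left panel) of the measured genes of each list, with the number measured in brackets. Each circle is a gene, filled red circles are called genes and blue bars are list medians. The row of fatty acid activation includes thioesterases and DBI, and the row of SLC25 carriers includes MPC1 and MPC2. PDK4, PLIN2 and ANGPTL4 are the filled circles to the right of 0 in the second row, and in the rows below it all filled circles lie to the left.

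Promoter windows in RefSeq were matched for 28 of the 36 genes by symbol, CPT1C included. A GC box was present in 20 of the 28 windows (71.4%), beside 44.6% of the windows of 27305 genes, and the median GC content was 66.0% beside 58.3%. CCAAT on either strand was in 6 windows (21.4%, beside 35.7%). AGGTCA, the core motif of many nuclear receptors, was in 1 window, that of UCP3 (3.57%, beside 13.9%), and its direct repeat AGGTCANAGGTCA, which holds it on the same strand, in 0 (beside 0.022%). TGACGTCA, the cyclic AMP response element, was in 1, that of ACOX3 (3.57%, beside 1.98%). None of these matches is a measured binding site, and elements outside the 300 bases were not searched.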

How the data were processed

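Gene expression was measured on Clariom S Human arrays in 9 samples, 3 each with CID, DMSO and DM. The authors made the deposited log2 values, 1 per probe set, by RMA (robust multi-array averaging) in the program Transcriptome Analysis Console, whose version is not given in the sources used here, so background correction and summarisation could not be repeated. Arrays were brought to a common distribution by that step, so changes are relative to the other genes. The symbols are those of the platform annotation, and some may be out of date. Of 21448 probe sets, 17709 carried 1 symbol, 0 carried several and 3739 carried none. A gene with several probe sets was to be given by the brightest, a case that arose for none of the 35 genes.

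Group means were fitted in limma 3.58.1 (R 4.3.3, statmod 1.5.0) over all 9 arrays, with 6 residual degrees of freedom, eBayes and Benjamini-Hochberg adjustment over all probe sets. A call is an adjusted p under 0.05 with at least a 1.5-fold change, as the methods word it for the pathway analysis. For the arrays the methods word it as a log2 fold change of at least 1.5, which was run as an alternative. The fit was tested on simulated data with 2-fold and 4-fold changes. It recovered 73% of the 2-fold changes for CID against DM and 75% for CID against DMSO. Of the 4-fold changes it recovered 97% in both. Changes below 2-fold were not simulated. The named genes are all members, then up to 3 called genes of each further list and RAB7A. The members and lists were chosen with earlier results of these data known. The alternatives were only the arrays compared, other fold thresholds, removal of the dimmest 33.3% of probe sets, a trended and robust prior, quantile normalization again, the replicate number as a block, array weights, median centring, the methods' t-test, the mean over probe sets, and leaving out each array. Precision is limited by the number of arrays, and no scan batch is given in the files. Promoter windows are from a RefSeq table of GRCh38.p14, at the first start site listed for each gene. Figures were drawn with matplotlib 3.10.9.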

Additional observations from a re-analysis of the deposited data

How the results depend on the processing

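In all 51 pairs of a comparison and an alternative, the median change of the 35 genes moved by less than the spread between arrays. That spread was the SD of the median of the 35 genes on single arrays, which ran from 8.86 to 9.26 with CID. It was wider than the median changes, so a median that vanished would also have passed. The mean over probe sets and the replicate block could not move the medians, since no gene had more than 1 probe set and every group held every replicate number. The median for CID against the mean of both groups was 0.07 without CID 1, beside 0.14, and that for CID against DM was 0.06 without the dimmest 33.3% of probe sets, beside 0.11. Of the 35 genes, 10 were followed singly through the alternatives (CPT1A, CPT1B, CPT2, ACADVL, HADHA, HADHB, DECR1, ACOX3, ACOT13 and UCP1). They were those with an unadjusted p under 0.05 from limma in a comparison with CID. None of these changed direction, which that choice made likely, and the other genes were not followed. The count of genes called for CID against DM was 0 and became 1 (ACADVL) with array weights, without the dimmest 33.3% of probe sets, with median centring, with quantile normalization applied again, with a trended and robust prior, with the methods' t-test without adjustment and without DMSO 1, while leaving out any other array gave 0. The count for CID against DMSO was 1. It became 2 with array weights or quantile normalization applied again, 4 without the dimmest 33.3%, with the trended and robust prior or with the unadjusted methods' t-test (CPT1A, CPT1B and CPT2 beside ACADVL for the first of these), and 0 with a log2 fold change of at least 1.5 or with the methods' t-test after Benjamini-Hochberg adjustment. With only the CID and DMSO arrays in the fit it stayed at 1, but the gene was CPT1B (adjusted p = 0.0322 from limma) and ACADVL had an adjusted p of 0.0591. Leaving out 1 CID or DMSO array gave 0 to 1. Without DM 1 the 1 gene called was CPT1B in place of ACADVL, and without DM 2 the count was 2 (CPT1A and ACADVL). The count against the mean of both groups was 1. It became 2 without a fold threshold or with quantile normalization applied again, and 0 with a log2 fold change of at least 1.5 or with the adjusted methods' t-test, and leaving out 1 array gave 0 to 3, with 0 without CID 1 or CID 3 and 3 without DM 1. The count for DMSO against DM was 0 in all alternatives. Apart from fewer arrays or probe sets and other thresholds, the cause of these shifts was not tested.

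Deviations of same-numbered arrays correlated at -0.05 to 0.07 and of others at -0.07 to 0.06, over all 3 pairs of groups. For CID and DMSO, each same-numbered pair was at 0.07 and the others at -0.05 to -0.02. Correlations this small cannot settle whether the replicate numbers pair the samples. With the replicate number as a block, the count for CID against DMSO was 0 (adjusted p = 0.0698 for ACADVL from limma) and the other counts did not change. Over all probe sets, the trended and robust prior gave 476 calls for CID against DM, beside 289. The fit with only the arrays compared was not run against the mean of both groups, which uses every array. Signal near background limits UCP1, UCP2, ACADS and PPARGC1B, which the filter on dim probe sets removes.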
